A study of Mus musculus with 15 samples.

Results

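The 37 genes described here are type I interferon induced genes and their regulators, taken from a list of symbols by their known function. All 37 were among the 23337 symbols counted in RNA from mouse bone marrow progenitors, and all 37 passed the filter on low counts together with 15181 genes in all. The series compared Trappc1 knockout (KO) with Trappc1 wild-type (WT) mice, which were untreated. Trappc1 encodes a component of TRAPP, a set of tethering complexes for vesicles that travel between the endoplasmic reticulum and the Golgi. Common myeloid progenitors (CMP) and granulocyte-monocyte progenitors (GMP) were sorted by their surface proteins, both as lineage-negative, Sca1-negative, CD117-positive and CD34-positive cells, with CD16/32 low on CMP and high on GMP. The groups were KO CMP (libraries 1 to 4), WT CMP (libraries 1 to 4), KO GMP (libraries 1, 3 and 4) and WT GMP (libraries 1 to 4), 15 libraries in all. How Trappc1 was deleted, the strain, age and sex of the mice, and whether each library came from its own mouse are not stated by the sources at hand, so p-values measure the spread between libraries, which may be partly technical.

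Type I interferons bind the receptor pair IFNAR1 and IFNAR2, and the kinases JAK1 and TYK2 then activate STAT2. STAT2 acts with IRF9 in the complex ISGF3, which binds the interferon-stimulated response element (ISRE) in the promoters of antiviral genes. IRF7, itself induced, drives further interferon production, while USP18 dampens signalling at the receptor. Blood stem and progenitor cells are known to hold a low tonic expression of many of these genes without infection.

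The ISRE core was searched in the promoters of the genes, because it is the element they are known to share. Promoter sequences came from RefSeq (GRCm38.p6, 250 bases before to 50 after the start) and covered 29 of the 37 genes. The core, GAAA and GAAA with any 2 bases between them, on either strand, was found in 15 of the 29 promoters (51.7%), in 3.79% of the 10566 tested genes with a promoter entry, and in 3.44% of all 32851 promoters. The 15 genes held 24 matches, some overlapping, and 10 matches lay within 100 bases before the start. The 5 promoters printed here run from overlapping matches to none among genes that the results turn on. The sequences are written on the strand of the gene, with matches in capitals; a match on the other strand reads as its reverse complement. Isg15 lies at chr4:156200769-156201068 (minus strand), Ifit1 at chr19:34640639-34640938 (plus), Rsad2 at chr12:26456403-26456702 (minus), Cmpk2 at chr12:26468965-26469264 (plus) and Irf7 at chr7:141266375-141266674 (minus).
Isg15: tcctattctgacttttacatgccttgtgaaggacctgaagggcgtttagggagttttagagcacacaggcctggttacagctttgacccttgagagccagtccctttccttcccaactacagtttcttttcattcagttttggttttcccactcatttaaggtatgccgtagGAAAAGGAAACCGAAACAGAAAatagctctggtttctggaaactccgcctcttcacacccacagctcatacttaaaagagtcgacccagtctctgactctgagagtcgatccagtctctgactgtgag
Ifit1: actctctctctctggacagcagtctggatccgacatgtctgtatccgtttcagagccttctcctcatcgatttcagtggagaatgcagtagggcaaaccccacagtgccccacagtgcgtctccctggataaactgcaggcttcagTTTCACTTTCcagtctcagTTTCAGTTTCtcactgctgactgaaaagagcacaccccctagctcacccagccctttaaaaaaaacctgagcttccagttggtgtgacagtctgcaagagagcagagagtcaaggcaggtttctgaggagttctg
Rsad2: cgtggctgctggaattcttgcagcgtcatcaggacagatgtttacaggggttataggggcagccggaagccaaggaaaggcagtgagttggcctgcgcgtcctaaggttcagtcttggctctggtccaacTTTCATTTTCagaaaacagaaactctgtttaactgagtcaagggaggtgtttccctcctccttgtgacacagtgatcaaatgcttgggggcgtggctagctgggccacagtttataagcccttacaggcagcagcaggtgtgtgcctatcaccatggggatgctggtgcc
Cmpk2: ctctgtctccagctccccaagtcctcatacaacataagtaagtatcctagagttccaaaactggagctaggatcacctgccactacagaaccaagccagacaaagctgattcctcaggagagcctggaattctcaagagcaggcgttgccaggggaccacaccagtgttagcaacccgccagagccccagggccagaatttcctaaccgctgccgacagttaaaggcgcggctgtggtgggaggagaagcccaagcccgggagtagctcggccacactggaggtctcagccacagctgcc
Irf7: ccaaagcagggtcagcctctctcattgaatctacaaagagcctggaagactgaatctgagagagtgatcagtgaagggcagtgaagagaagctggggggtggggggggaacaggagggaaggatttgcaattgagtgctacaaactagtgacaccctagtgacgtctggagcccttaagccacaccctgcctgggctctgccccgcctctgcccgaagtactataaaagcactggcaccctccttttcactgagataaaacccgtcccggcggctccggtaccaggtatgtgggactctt
Isg15 held 3 overlapping matches beginning 78, 72 and 66 bases before its start, Ifit1 held 2 and Rsad2 held 1. Cmpk2 and Irf7 held none in this window, which says nothing of sites elsewhere.

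Library totals were 68.17 to 120.3 M units in KO CMP, 77.91 to 106.44 in WT CMP, 74.55 to 101.99 in KO GMP and 61.28 to 112.43 in WT GMP, with about 4 units to a sequenced fragment. Trappc1 measured 3.83 to 13.4 CPM (counts per M counts of the library) in KO CMP and 18.4 to 26.2 CPM in WT CMP, and 6.09 to 25.2 CPM in KO GMP and 30.9 to 41.3 CPM in WT GMP. KO CMP libraries 1 and 2 and KO GMP library 1 stood apart, since they held Xist at 109, 204 and 123 CPM while no other library exceeded 2.17 CPM. They also had the highest summed levels of 12 stromal and endothelial markers (349, 380 and 282 CPM, against at most 225 CPM elsewhere). Pecam1, present in every library, made up a large part of these sums. Cxcl12, another of the markers, measured 91, 127 and 48.7 CPM in the same libraries, against at most 15.1 CPM elsewhere. Libraries also parted by number within each group, 1 and 2 from 3 and 4, and what the numbers stand for is not given. Each comparison was made across all libraries and again inside each pair of numbers. Values after ± are standard errors (SE) for log2 fold changes, and a gene is said to rise or fall where the adjusted p was under 0.05.

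The spread among WT libraries was large for these genes. The WT CMP libraries share genotype and sort gate, though their cell type transcripts differed by number, as given below. Their highest library stood above the lowest by a median of 2.72-fold over the 37 genes. Over the 14285 tested genes above 0 in every WT CMP library the median was 1.41-fold. Of the 37 genes 22 exceeded 2-fold, against 21.9% of those 14285 genes. The widest was Ifit3 at 13.2-fold. In WT GMP the median was 2.29-fold against 1.28-fold over the 13449 genes above 0 in every WT GMP library, and Ifit1 reached 28.2-fold, with only 6 fragments in WT GMP library 2. Inside each number pair the same genes differed little, by a median of 1.1-fold between WT CMP libraries 1 and 2, 1.1-fold between 3 and 4, 1.09-fold between WT GMP libraries 1 and 2 and 1.05-fold between 3 and 4.

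**Figure D1:**
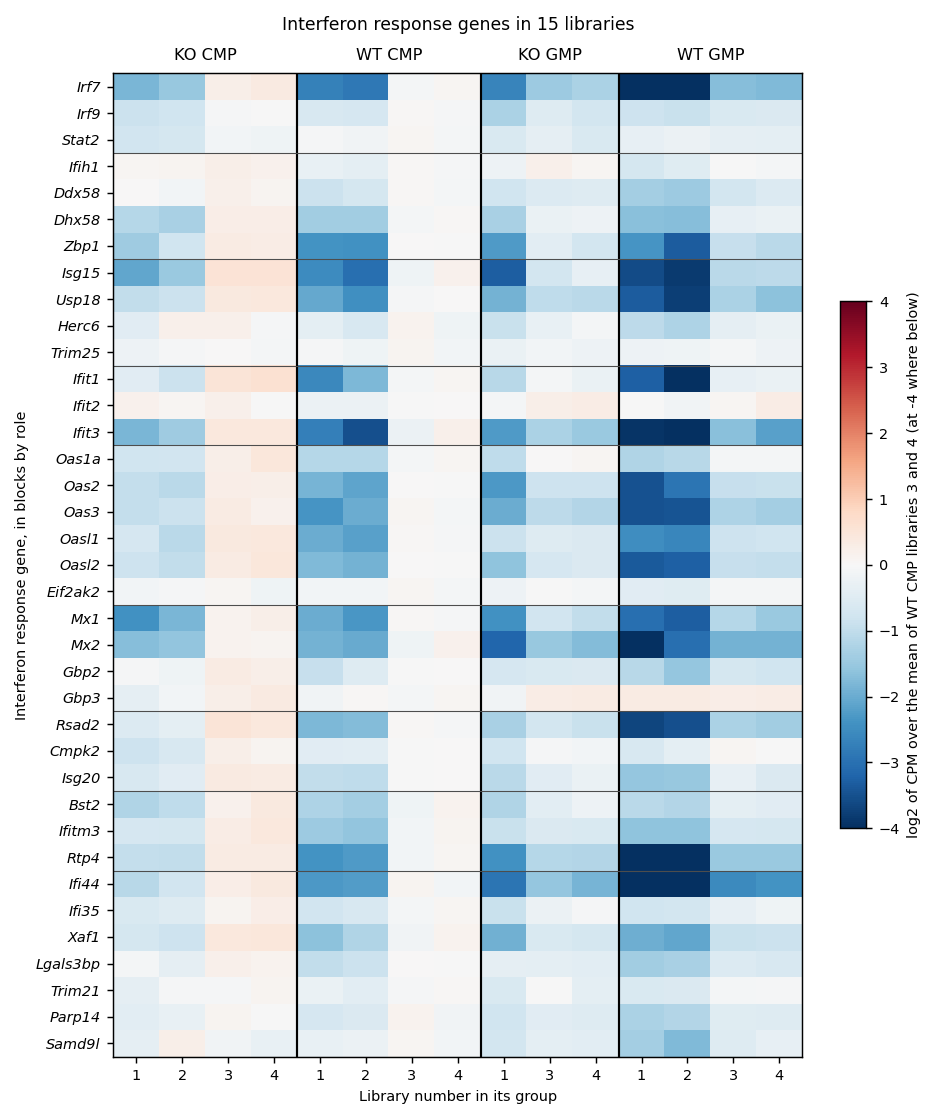
Level of each interferon response gene (rows, in blocks by role) in each library (columns), as log2 of CPM over the mean of WT CMP libraries 3 and 4. Most genes are lower in libraries 1 and 2 of a group than in its libraries 3 and 4, and the median gene stood at 61 and 59.4 percent of that mean in KO CMP libraries 1 and 2, and at 42.7 and 43.6 percent in WT CMP libraries 1 and 2.

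The difference by number in WT ran one way. Of the 37 genes, 29 fell and none rose in WT CMP libraries 1 and 2 against 3 and 4, where 22.9% of all tested genes were called (10.6% lower, 12.3% higher). The median log2 fold change was -1.30 over the 37 genes and -0.01 over all genes. In WT GMP 32 of 37 fell and none rose, where 8.61% of all genes were called (5.45% lower, 3.16% higher), with a median of -1.07 against -0.01. Summed over the 37 genes, libraries 1 and 2 held 1069 and 1070 CPM in WT CMP against 2041 and 2093 CPM in libraries 3 and 4, and 900 and 900 CPM in WT GMP against 1461 and 1443 CPM. In bulk RNA, fewer cells expressing a gene and less RNA per cell cannot be told apart.

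Among the transcription factors, Irf7 moved furthest and its partners in signalling much less. Irf7 measured 10.3 and 9.16 CPM in WT CMP libraries 1 and 2, against 63.7 and 70.4 CPM in libraries 3 and 4, and 3.48 and 3 CPM in WT GMP libraries 1 and 2, against 20.7 and 19.9 CPM. The pairs were far apart in both cell types, with log2 fold changes of -2.79 ± 0.12 (adjusted p = 2.54e-07) and -2.65 ± 0.13 (adjusted p = 6.28e-07). Irf9, the DNA-binding subunit of ISGF3, measured 44.0 and 43.4 CPM in WT CMP libraries 1 and 2, against 71.1 and 67.5 CPM, a fall of lesser size (-0.67 ± 0.08, adjusted p = 1.65e-04). In WT GMP Irf9 measured 39.0 and 37.4 CPM, against 45.1 and 46.9 CPM (-0.27 ± 0.08, adjusted p = 0.0625). Stat2, the subunit of ISGF3 that activates transcription, measured 47.8 and 44.3 CPM in WT CMP libraries 1 and 2, against 51.7 and 47.0 CPM in libraries 3 and 4. Its pairs overlapped, and the difference was -0.10 ± 0.09 (adjusted p = 0.478).

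The ISG15 system tags proteins with the ubiquitin-like ISG15. Isg15 measured 3.77 and 2.67 CPM in WT CMP libraries 1 and 2, against 19.0 and 24 CPM in libraries 3 and 4, and 1.80 and 1.53 CPM in WT GMP, against 10.2 and 10.5 CPM. Usp18, which removes ISG15 from proteins and dampens receptor signalling, measured 5.10 and 3.80 CPM in WT CMP libraries 1 and 2, against 20.5 and 21.4 CPM. Both fell in both cell types, Isg15 by 2.74 ± 0.23 and Usp18 by 2.24 ± 0.17 on the log2 scale in CMP. The ligases Herc6 and Trim25 measured -0.52 ± 0.19 (adjusted p = 0.0706) and -0.11 ± 0.09 (adjusted p = 0.418) in CMP. In GMP Herc6 fell (-0.82 ± 0.20, adjusted p = 0.0235), a call lost when any 1 of the 4 WT GMP libraries was left out, and Trim25 measured -0.03 ± 0.09.

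All 4 sensors of foreign nucleic acids fell in both WT cell types. Dhx58 (LGP2), a regulator of the RNA helicase sensors, measured 19.5 and 19.6 CPM in WT CMP libraries 1 and 2, against 48.6 and 53.1 CPM (-1.38 ± 0.08, adjusted p = 7.71e-07). Zbp1, a Z-nucleic acid sensor, had a log2 fold change of -2.40 ± 0.27, while the helicases Ddx58 (RIG-I) and Ifih1 (MDA5) had -0.78 ± 0.09 and -0.34 ± 0.09. The Ifih1 call in CMP was lost without WT CMP library 2 or without library 3. In GMP the values were -1.40 ± 0.08 for Dhx58, -1.77 ± 0.27 for Zbp1, -0.75 ± 0.10 for Ddx58 and -0.54 ± 0.09 for Ifih1.

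The OAS enzymes make 2-5A, which activates RNase L against viral RNA, and all 5 OAS genes fell by number in both cell types. Oas2 measured 11.3 and 9.50 CPM in WT CMP libraries 1 and 2, against 41.5 and 40.1 CPM (-1.97 ± 0.14, adjusted p = 3.34e-06). Oas3 measured 7.77 and 9.96 CPM, against 41.3 and 37.6 CPM (-2.15 ± 0.12, adjusted p = 7.35e-07). Oas1a measured 30.0 and 30.5 CPM, against 62.8 and 70.8 CPM (-1.14 ± 0.09, adjusted p = 6.60e-06). In each of them the pairs were separate and close within themselves. The OAS-like genes behaved alike: Oasl1, an inhibitor of IRF7 translation in mice, measured 6.16 and 5.37 CPM against 25.2 and 23.5 CPM, and Oasl2 measured 18.2 and 16.7 CPM against 62.7 and 60.4 CPM. Their log2 fold changes were -2.08 ± 0.13 (adjusted p = 1.37e-06) and -1.82 ± 0.09 (adjusted p = 3.23e-07). Eif2ak2, the kinase PKR, differed from them with -0.11 ± 0.09 in CMP (adjusted p = 0.42), although it fell in GMP (-0.38 ± 0.09, adjusted p = 0.0225), a call lost when any 1 of the 4 WT GMP libraries was left out.

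Effectors that act on viral RNA or at membranes showed the same split. Rsad2 (viperin), which makes a chain-terminating nucleotide, measured 6 and 6.22 CPM in WT CMP libraries 1 and 2, against 21.4 and 20.3 CPM, and 1.64 and 1.84 CPM in WT GMP, against 8.68 and 8.02 CPM. The differences were -1.77 ± 0.11 (adjusted p = 1.37e-06) and -2.26 ± 0.12 (adjusted p = 1.23e-06). Ifitm3, which blocks viral fusion, measured 106 and 97.6 CPM in WT CMP libraries 1 and 2, against 270 and 315 CPM (-1.53 ± 0.08, adjusted p = 5.03e-07). Cmpk2, the mitochondrial nucleotide kinase next to Rsad2, measured 27.9 and 28.7 CPM, against 37.4 and 38.9 CPM, a small difference (-0.43 ± 0.09, adjusted p = 0.00765). Ifit1 and Ifit3, which bind viral RNA or its partners, fell by 2.13 ± 0.36 and 3.08 ± 0.32 on the log2 scale in CMP, whereas Ifit2 measured -0.23 ± 0.10 (adjusted p = 0.111). The GTPases Mx1, Mx2 and Gbp2 fell (-2.15 ± 0.20, -1.95 ± 0.29 and -0.71 ± 0.15), and Gbp3 stood at -0.05 ± 0.09 (adjusted p = 0.769). Mx2 is annotated as a polymorphic pseudogene in this build.

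The other genes ranged from Rtp4, a chaperone of surface receptors, at -2.33 ± 0.20, and Ifi44 at -2.26 ± 0.18 to Samd9l at -0.26 ± 0.17 (adjusted p = 0.312). Bst2 (tetherin), Xaf1, Isg20, Lgals3bp, Ifi35 and Parp14 fell in both cell types, by 0.63 to 1.40 on the log2 scale in CMP. The Fc receptor Trim21 had -0.34 ± 0.14 in CMP (adjusted p = 0.0923). The Ifi35 call in GMP (-0.51) was lost without WT GMP library 1, 2 or 4. With each of the 4 WT CMP libraries left out in turn, 28 to 29 genes fell in CMP, and 27 to 28 fell in GMP without each WT GMP library.

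**Figure D2:**
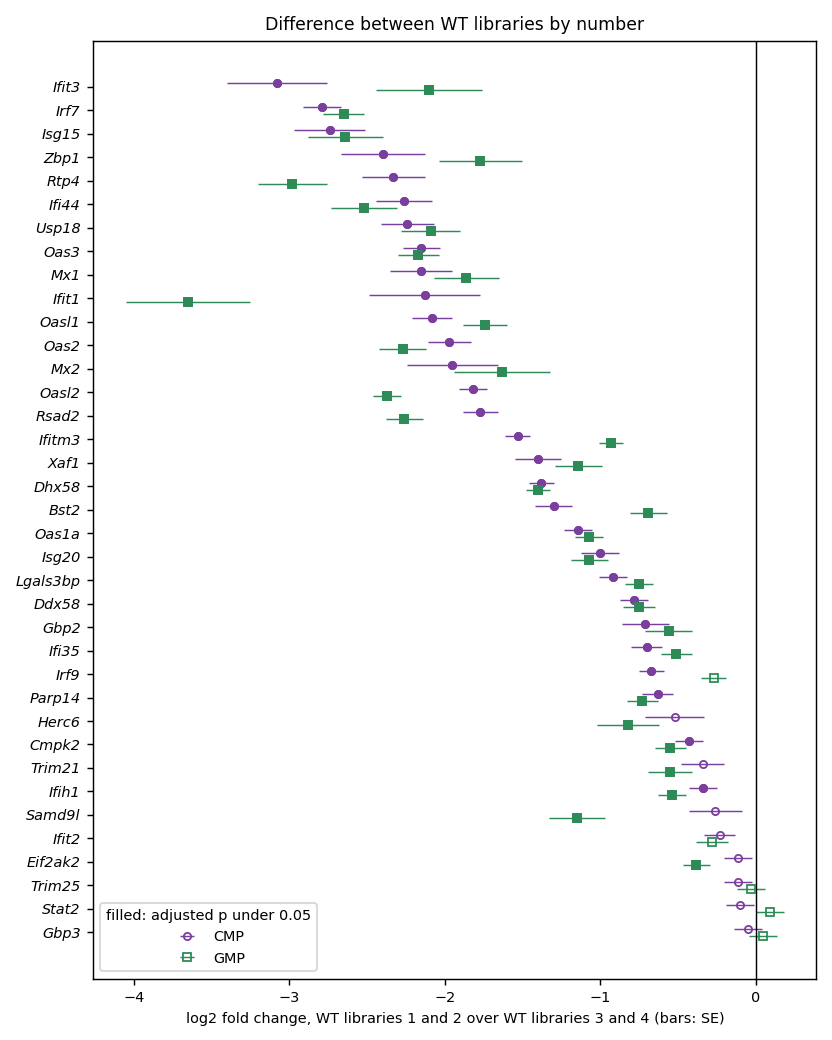
Log2 fold change of WT libraries 1 and 2 over WT libraries 3 and 4 for each gene, in CMP (circles) and GMP (squares), with SE bars from 2 libraries on each side; filled symbols passed an adjusted p of 0.05. All 37 CMP values lie left of 0, from Ifit3 at -3.08 to Gbp3 at -0.05, and 35 of 37 GMP values lie left of 0.

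Transcripts of cell types also differed between the WT number pairs. In WT CMP all 7 granule markers rose in libraries 1 and 2 (22068 and 24500 CPM summed, against 11488 and 12396 CPM in libraries 3 and 4). In WT GMP their sums were 39962 and 40993 CPM, against 42837 and 43280 CPM. Of the 8 tested markers of plasmacytoid dendritic cells, known as strong interferon producers, 4 fell and 1 rose in WT CMP libraries 1 and 2. Their defining marker Siglech measured 1.62 and 1.82 CPM there, against 9.34 and 9.10 CPM, and 0 and 0 CPM in WT GMP libraries 1 and 2, against 0.142 and 0.288 CPM. The sums of all 10 such markers were 149 and 149 CPM in WT CMP libraries 1 and 2, against 195 and 199 CPM. In WT GMP they were 144 and 140 CPM, against 153 and 152 CPM. Most of each sum came from Tcf4, Lair1 and Clec10a, so the sums say little of Siglech. Clec10a measured 12.7 and 11.2 CPM in WT CMP libraries 1 and 2, against 47.7 and 57.9 CPM. Lair1 went the other way, at 50.6 and 55.8 CPM against 29.0 and 29.8 CPM. In WT GMP Clec10a measured 19.5 and 16.1 CPM, against 28.4 and 29.2 CPM. The part of plasmacytoid dendritic cells in the interferon result was not tested.

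KO libraries parted by number in the same direction. In KO CMP libraries 1 and 2 against 3 and 4, 28 of the 37 genes fell and none rose, where 29% of all genes were called, with a median of -1.04. In KO GMP library 1 against 3 and 4, 23 fell and none rose, where 26.6% of all genes were called, with a median of -0.73. Without KO CMP library 1, Samd9l, the only gene to do so, rose in the CMP comparison (0.46 on the log2 scale, against 0.19 with all libraries), and 26 to 27 genes fell when each KO CMP library was left out. These comparisons were added after the WT values had been seen, and KO libraries 1 and 2 are also those that held Xist.

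The series set KO against WT progenitors, and that comparison was made here for the 37 genes. Over all libraries none of the 37 genes was called in KO CMP or KO GMP, and none of all 15181 genes was (0% called). At an unadjusted p under 0.05 none of the 37 was higher in KO CMP and 1, Stat2, was lower, where 4.68% of all genes were higher and 6.92% lower. DESeq2 also called none of the 37, and 3.02% of all genes in CMP. Most values were positive, 32 of 37 in CMP (median 0.38, against 0.01 over all genes) and 31 of 37 in GMP (median 0.36). The fit over all libraries had no term for the library number. For Irf7 the spread within a group was wider than the difference, at 51.5 ± 35.5 CPM in KO CMP and 38.4 ± 33.2 CPM in WT CMP (SD, n = 4 each). Its log2 fold change was 0.43 ± 0.78. With the library number as a block, the counts of the 37 genes called in KO CMP and KO GMP were unchanged. Groups without overlap were rare, since only Ifih1 lay higher in all KO CMP libraries than in all WT CMP libraries (3.25% of all genes did), and none lay lower in all of them (3.6% of all genes did). In GMP Gbp2 and Lgals3bp did so (3.64% of all genes). The KO effect was not called different between CMP and GMP for any gene (0% of all genes), with a median difference of -0.07.

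KO libraries were next set against WT libraries of the same number. Of the 37 genes, 20 were higher in KO in all 7 such pairs of CMP and GMP, against 4.55% of all genes. They were Irf7, Ifih1, Ddx58, Dhx58, Zbp1, Isg15, Usp18, Ifit3, Oas1a, Oas2, Oas3, Oasl1, Oasl2, Gbp2, Rsad2, Ifitm3, Rtp4, Ifi44, Xaf1 and Lgals3bp. Only Stat2 was lower in KO in all 7 pairs, against 4.83% of all genes. The pairs with KO CMP libraries 1 and 2 and KO GMP library 1 mix genotype with high Xist. Whether CMP and GMP libraries of the same number share mice is not given, so the pairs may not be independent. In the 4 pairs of numbers 3 and 4 alone, 24 genes were higher in KO (13.5% of all genes) and 1, Stat2, was lower (14.5% of all genes).

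Within numbers 1 and 2 more of the genes were called in CMP. Xist measured 109 and 204 CPM in the KO libraries, against 2.17 and 0.833 CPM in the WT libraries, so genotype and high Xist cannot be told apart here. Of the 37 genes 22 rose and 2 fell in KO CMP libraries 1 and 2 against WT CMP libraries 1 and 2, where 18.5% of all genes were called (8.23% higher, 10.2% lower), and the median log2 fold change was 0.45 against 0.01. Irf7 measured 18.7 and 23.2 CPM in KO, against 10.3 and 9.16 CPM in WT (1.11 ± 0.12, adjusted p = 3.92e-05). Rsad2 measured 14.2 and 15.9 CPM, against 6 and 6.22 CPM (1.30 ± 0.11, adjusted p = 6.23e-06). In both genes the KO libraries lay above WT libraries 1 and 2 and below WT libraries 3 and 4. That position was common: 29 of the 37 genes were lower in both KO CMP libraries 1 and 2 than in both WT CMP libraries 3 and 4 (29% of all genes were), and Ifih1 and Ifit2 were higher (29.1% of all genes were).

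The 2 genes that fell in KO CMP libraries 1 and 2 were Stat2 and Cmpk2. Stat2 measured 29.1 and 30.0 CPM in KO, against 47.8 and 44.3 CPM in WT libraries 1 and 2, without overlap (-0.64 ± 0.09, adjusted p = 4.34e-04). Cmpk2 measured 21.6 and 24.3 CPM, against 27.9 and 28.7 CPM (-0.30 ± 0.10, adjusted p = 0.0446). Its neighbour on chromosome 12, Rsad2 (26442746 to 26456452, minus strand, against 26469204 to 26479837, plus strand, for Cmpk2, GRCm38), rose in the same libraries. The Cmpk2 call was lost with DESeq2 (adjusted p = 0.0542) and when KO CMP library 1 or either of the WT CMP libraries was left out (-0.22 to -0.39 over the libraries left out). Irf9 measured 38 and 39.6 CPM in KO, against 44.0 and 43.4 CPM in WT (-0.17 ± 0.08, adjusted p = 0.175).

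By role, the genes that rose in KO CMP libraries 1 and 2 were Irf7 of the 3 transcription factors, 3 of 4 sensors, 2 of 4 genes of the ISG15 system, all 3 IFIT genes, all 5 OAS genes without Eif2ak2, 1 of 4 GTPases, 2 of 3 nucleotide and RNA enzymes, 2 of 3 membrane genes and 3 of the 7 others. Ifit1 and Ifit3 had the highest values, 1.5 ± 0.35 (adjusted p = 0.0104) and 1.48 ± 0.31 (adjusted p = 0.00537). Usp18 measured 10.7 and 11.6 CPM in KO, against 5.10 and 3.80 CPM in WT (1.32 ± 0.17, adjusted p = 1.71e-04), and Isg15 measured 5.11 and 7.69 CPM, against 3.77 and 2.67 CPM (0.99 ± 0.22, adjusted p = 0.00768). Neither gene overlapped between the genotypes. Of the OAS genes, Oas3 measured 20.5 and 21.7 CPM in KO, against 7.77 and 9.96 CPM in WT (1.25 ± 0.12), and Oas1a measured 38.3 and 39.2 CPM, against 30.0 and 30.5 CPM (0.36 ± 0.09).

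The remaining genes of this comparison that the WT split had ranked high were also separate between genotypes. Oas2 measured 20.9 and 19.3 CPM in KO, against 11.3 and 9.50 CPM in WT (0.95 ± 0.14), and Oasl1 measured 15.3 and 11.5 CPM, against 6.16 and 5.37 CPM (1.22 ± 0.13). Oasl2 measured 34.9 and 30.9 CPM, against 18.2 and 16.7 CPM (0.91 ± 0.09), and Ifitm3 measured 185 and 181 CPM, against 106 and 97.6 CPM (0.85 ± 0.08). The sensors Zbp1, Ddx58 and Ifih1 rose by 1.32 ± 0.26, 0.75 ± 0.09 and 0.43 ± 0.09. Dhx58 measured 22.9 and 20.6 CPM in KO, against 19.5 and 19.6 CPM in WT, and did not pass (0.16 ± 0.08, adjusted p = 0.225). Mx1 and Bst2, which fell by number in WT CMP, did not pass here, Mx1 with 0.06 ± 0.20 and Bst2 with 0.18 ± 0.12. Left out in turn, the 4 libraries gave 16 to 20 genes that rose, and Gbp2, Ifit1, Ifit2, Ifit3, Isg15, Isg20, Oas1a and Xaf1 each lost their call without at least 1 of them.

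**Figure D3:**
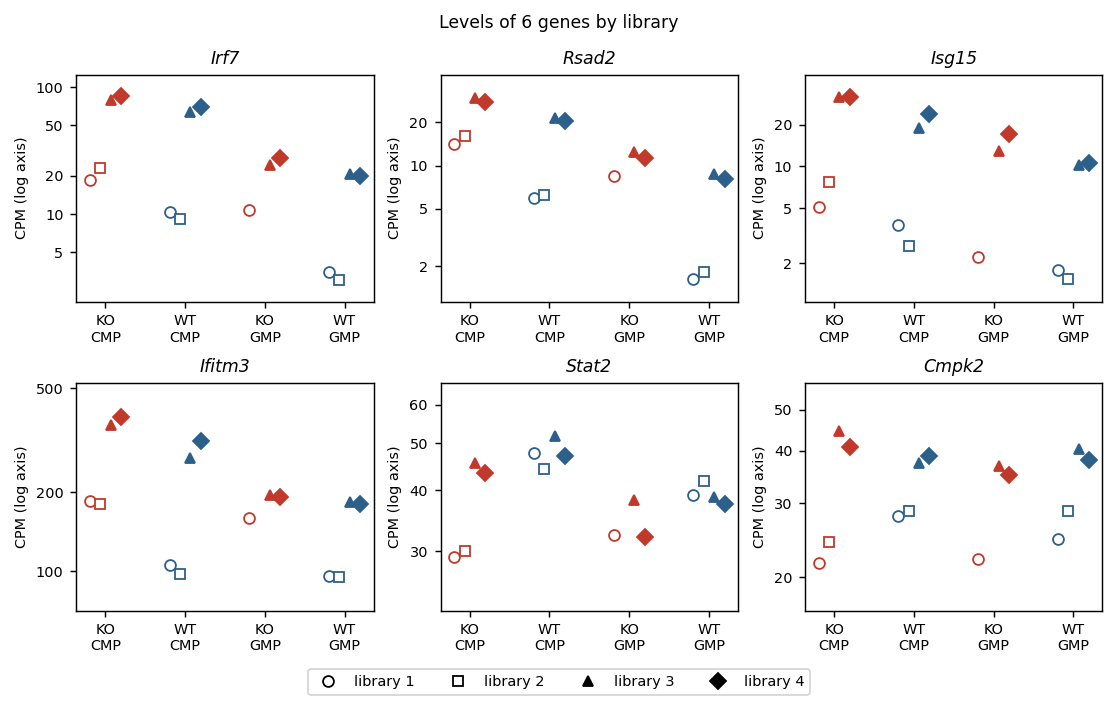
CPM (log axis) of 6 genes in every library, KO in red and WT in blue, with open symbols for libraries 1 and 2 and filled symbols for libraries 3 and 4. Irf7, Rsad2, Isg15 and Ifitm3 lie lower in the open than in the filled symbols of their group, while Stat2 lies at 29.1 and 30 CPM in KO CMP libraries 1 and 2 and at 44.3 to 51.7 CPM in the 4 WT CMP libraries.

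KO CMP libraries 1 and 2 differed from their WT counterparts in cell type transcripts too, where 18.5% of all genes were called. Of 5 genes of the sort gate, 2 rose (Ly6a and Cd34) and 2 fell (Fcgr3 and Fcgr2b). Fcgr3, which encodes CD16, measured 12.9 and 18.8 CPM in KO, against 99.5 and 115 CPM in WT. Fcgr2b measured 35.2 and 36.7 CPM in KO, against 66.3 and 67.4 CPM in WT. All 7 granule markers fell (4629 and 5270 CPM summed in KO, against 22068 and 24500 CPM in WT), 11 of 14 stem cell markers rose (1653 and 1562 CPM, against 997 and 1060 CPM), and 8 of 12 stromal and endothelial markers rose (349 and 380 CPM, against 173 and 166 CPM). KO CMP library 2 alone held Ifng, the gene of interferon gamma, at 7.57 CPM (152 fragments), with 0.272 CPM in KO CMP library 1 and at most 1.35 CPM in the other libraries. It also held T cell transcripts. Cd3e measured 2.53 CPM in it, against 0 CPM in KO CMP library 1 and at most 0.367 CPM elsewhere. The 9 T and NK markers summed to 143 and 184 CPM in KO CMP libraries 1 and 2, against 239 and 260 CPM in WT. Most of each sum was Nkg7, at 137 and 130 CPM in KO, against 221 and 242 CPM in WT. Every other marker of the 9 was higher in KO CMP library 2 than in KO CMP library 1 and WT CMP libraries 1 and 2. Klrb1c measured 14.4 CPM in KO CMP library 2, against 3.67 CPM in KO CMP library 1 and 7.80 and 8.69 CPM in WT. Without KO CMP library 2, 20 genes rose and 3 fell (18.9% of all genes were called), and the median log2 fold change of the 37 genes was 0.41, against 0.45 with it. The part of the sort gate, stem, stromal and granule transcripts in the result was not tested.

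Within numbers 3 and 4, where Xist measured at most 0.305 CPM in any library, the median difference between genotypes in CMP was smaller. Trappc1 differed less there as well, at 11.7 and 13.4 CPM in KO CMP libraries 3 and 4, against 18.8 and 25.2 CPM in WT (-0.80 ± 0.19, adjusted p = 0.263), while libraries 1 and 2 held 5.56 and 3.83 CPM in KO, against 18.4 and 26.2 CPM in WT (-2.25 ± 0.21, adjusted p = 1.03e-05). None of the 37 genes passed (0.00659% of all genes did, 1 gene), and 15 were higher and none lower at an unadjusted p under 0.05, where 6.18% of all genes were higher and 5.21% lower. Ifitm3, Oas1a and Oasl2 passed with DESeq2, 3 in all, where 0.909% of all genes did. The values were positive for 32 of 37 genes, with a median of 0.27 against -0.01 over all genes, and in 27 genes both KO libraries lay above both WT libraries (20.9% of all genes). Irf7 measured 78.8 and 85.4 CPM in KO, against 63.7 and 70.4 CPM in WT (0.29 ± 0.11, adjusted p = 0.382). Rsad2 measured 29.6 and 27.7 CPM, against 21.4 and 20.3 CPM (0.46 ± 0.11, adjusted p = 0.251), and Isg15 measured 31.6 and 31.5 CPM, against 19.0 and 24 CPM (0.55 ± 0.21, adjusted p = 0.366). The KO libraries lay above the WT libraries in each of these genes. Stat2 measured 45.5 and 43.5 CPM, against 51.7 and 47.0 CPM (-0.15 ± 0.09, adjusted p = 0.558), lower in KO as in numbers 1 and 2, and Samd9l was the other gene with both KO libraries lower (22.4% of all genes).

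The test of the difference itself, the KO effect in numbers 1 and 2 minus that in 3 and 4, called 12 genes higher and 2 lower in CMP, where 7.64% of all genes were called (3.05% higher, 4.59% lower). Oas3 differed by 0.99 ± 0.17 (adjusted p = 0.0031), Rsad2 by 0.84 ± 0.16 (adjusted p = 0.00512), Irf7 by 0.82 ± 0.17 (adjusted p = 0.00918) and Stat2 by -0.49 ± 0.13 (adjusted p = 0.0414). For the other genes no difference between number pairs was called, among them Isg15 (0.44 ± 0.30, adjusted p = 0.469), Oas1a (0.01 ± 0.12) and Isg20 (0.12 ± 0.17). The calls were sensitive to single libraries: 4 to 10 genes were called higher with 1 library left out, with the lowest count without KO CMP library 3 or WT CMP library 3, and the call of Stat2 was kept only without WT CMP library 3.

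**Figure D4:**
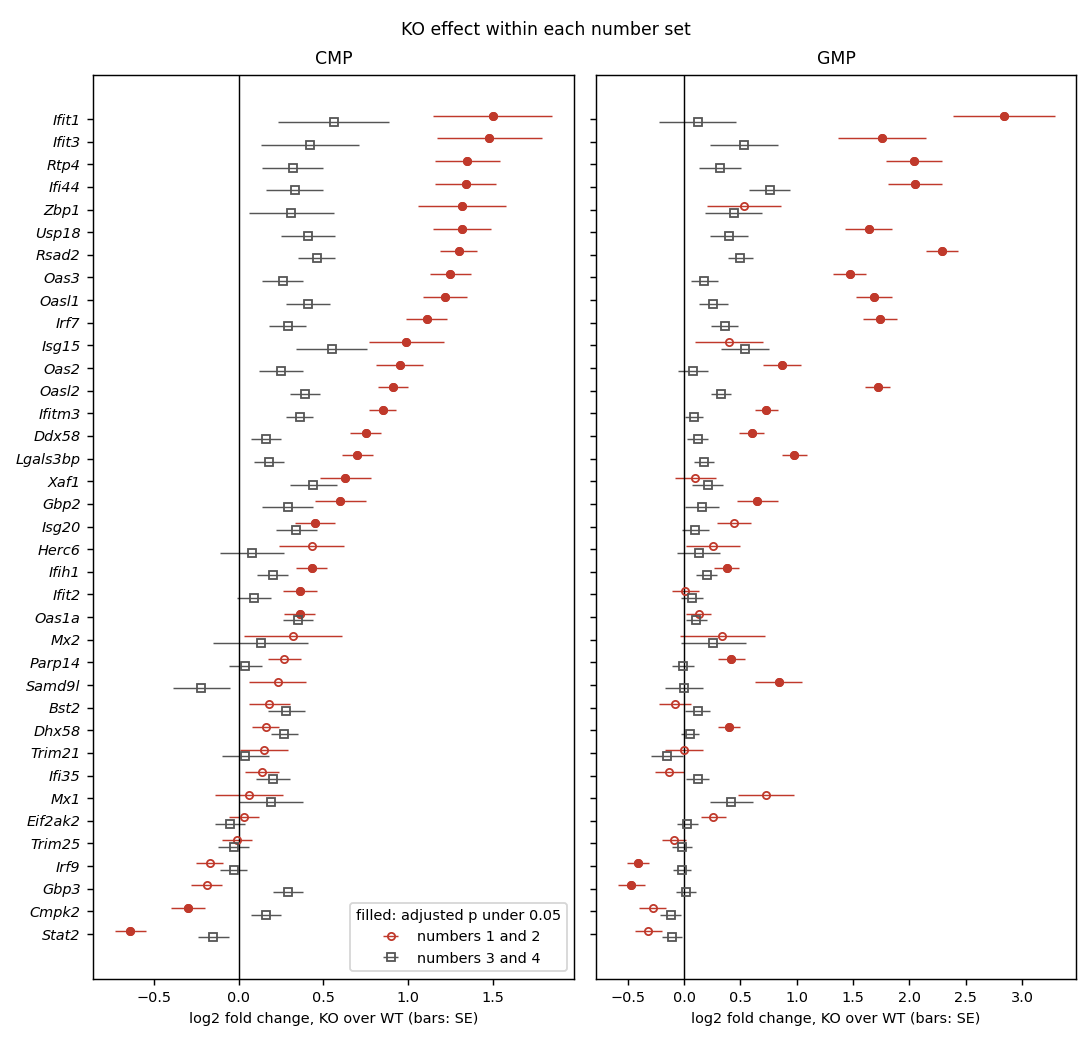
Log2 fold change of KO over WT for each gene in CMP (left) and GMP (right), within numbers 1 and 2 (circles) and within numbers 3 and 4 (squares), with SE bars; filled symbols passed an adjusted p of 0.05. In CMP 22 circles are filled right of 0 and 2 left of it, no square is filled, and the genes run from Ifit1 (1.5) at the top to Stat2 (-0.64) at the bottom.

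KO GMP has 1 library in numbers 1 and 2, which held Xist at 123 CPM, while no WT library exceeded 2.17 CPM. The fit takes the spread of that KO library from the other groups. Against WT GMP libraries 1 and 2, 19 genes rose and 2 fell in it, where 20% of all genes were called (median 0.44 against 0.00). Rsad2 measured 8.53 CPM in KO GMP library 1, against 1.64 and 1.84 CPM (2.29 ± 0.14, adjusted p = 1.02e-06), and Oasl2 measured 20.3 CPM, against 5.95 and 6.35 CPM (1.72 ± 0.11, adjusted p = 1.02e-06). Irf7 measured 10.8 CPM, against 3.48 and 3 CPM (1.74 ± 0.15, adjusted p = 1.12e-05). For these genes the KO library stood well above both WT libraries. Isg15 did not, at 2.20 CPM against 1.80 and 1.53 CPM (0.40 ± 0.30, adjusted p = 0.377), nor did Oas1a, at 33.0 CPM against 29.2 and 31.0 CPM (0.13 ± 0.11, adjusted p = 0.425).

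The genes that fell in KO GMP library 1 were Irf9 and Gbp3. Irf9 measured 28.8 CPM, against 39.0 and 37.4 CPM in WT GMP libraries 1 and 2 (-0.41 ± 0.10, adjusted p = 0.0141), and Gbp3 measured 66.7 CPM, against 92.2 and 92.3 CPM (-0.47 ± 0.12, adjusted p = 0.0142). Both calls were lost without WT GMP library 1, where 0 genes fell. Stat2 measured 32.4 CPM, against 39.1 and 41.8 CPM (-0.32 ± 0.12, adjusted p = 0.0739). Beside these values, all 7 granule markers fell in KO GMP library 1 (21925 CPM summed, against 39962 and 40993 CPM) and 13 of 14 stem cell markers rose (857 CPM, against 429 and 416 CPM), and their part in the result was not tested.

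In numbers 3 and 4 Trappc1 measured 24.1 and 25.2 CPM in KO GMP, against 30.9 and 33.3 CPM in WT GMP, a small and uncalled difference in the gene that defines the groups (-0.38 ± 0.19, adjusted p = 1). None of the 37 genes passed in GMP (0.0132% of all genes did), and 8 were higher and none lower at an unadjusted p under 0.05, where 2.07% of all genes were higher and 3.12% lower. DESeq2 called Ifi44 higher and 0.295% of all genes in either direction. The median was 0.12 against 0.00 over all genes. Rsad2 measured 12.4 and 11.2 CPM in KO, against 8.68 and 8.02 CPM in WT (0.50 ± 0.11, adjusted p = 0.292), and Ifi44, a gene of unsettled function, measured 7.09 and 5.78 CPM, against 3.58 and 4.02 CPM (0.76 ± 0.18, adjusted p = 0.309). Both lay higher in both KO libraries, as did 21 of the 37 genes (18.4% of all genes). The KO effect differed between number pairs in GMP for 12 genes, all higher, where 10.6% of all genes were called (6.27% higher, 4.36% lower), with Ifit1 at 2.72 ± 0.56, Rsad2 at 1.79 ± 0.18 and Rtp4 at 1.72 ± 0.32.

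The mean KO effect in numbers 3 and 4 over CMP and GMP called none of the 37 genes (0.0725% of all genes were called, 0.0329% higher and 0.0395% lower), with 21 higher and none lower at an unadjusted p under 0.05, where 6.12% of all genes were higher and 6.65% lower, and a median of 0.20. Trappc1 itself had -0.59 ± 0.14 (adjusted p = 0.113). Rsad2 came nearest at 0.48 ± 0.08 (adjusted p = 0.0551), followed by Oasl2 at 0.36 ± 0.06 (adjusted p = 0.0618) and Ifi44 at 0.55 ± 0.12 (adjusted p = 0.103). Rsad2 passed with the replicate block (0.48, adjusted p = 0.0195), where 0.198% of all genes did, and, with Oasl2, after counts were divided by 4 or with no filter on low counts. DESeq2 called 7 genes higher (Ifi44, Ifitm3, Irf7, Isg15, Oas1a, Oasl2 and Rsad2), where it called 2.7% of all genes.

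GMP held lower levels of these genes than CMP. In all 7 pairs of GMP and CMP libraries of the same genotype and number, 26 of the 37 genes were lower in GMP (19.4% of all genes) and none was higher. Irf7 measured 3.48, 3, 20.7 and 19.9 CPM in WT GMP, against 10.3, 9.16, 63.7 and 70.4 CPM in WT CMP, and 10.8, 24.6 and 27.6 CPM in KO GMP, against 18.7, 23.2, 78.8 and 85.4 CPM in KO CMP. Few passed over all libraries, where the levels of the cell types overlapped. In WT 4 fell (Ddx58, Gbp2, Ifi44 and Samd9l; 25.5% of all genes were called) and in KO only Gbp2 fell (21.2% of all genes were called). With the library number as a replicate block, 22 genes fell and 1, Gbp3, rose in WT, where 34.2% of all genes were called, and 23 fell in KO, where 28.6% were. With the block Irf7 measured -1.65 (adjusted p = 8.98e-04) in WT and -1.47 (adjusted p = 0.00313) in KO. Over all libraries, without the block, 0 to 5 genes fell in WT with 1 library left out, with 0 when library 3 or 4 of WT CMP or library 1 of WT GMP was the one left out, and the Gbp2 call in KO was lost without any 1 library but KO CMP library 2.

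Some genes held their level between the cell types. Cmpk2 measured 24.7, 28.8, 40.3 and 37.9 CPM in WT GMP, against 27.9, 28.7, 37.4 and 38.9 CPM in WT CMP (-0.01 ± 0.25, adjusted p = 0.979). Oas1a measured 29.2, 31.0, 63.8 and 63.1 CPM in WT GMP, against 30.0, 30.5, 62.8 and 70.8 CPM in WT CMP (-0.05 ± 0.39, adjusted p = 0.939), so it split by number and hardly by cell type. Ifi44 showed both splits, with 0.796, 0.538, 3.58 and 4.02 CPM in WT GMP, against 4.27, 4.45, 22.4 and 19.4 CPM in WT CMP (-2.49 ± 0.71, adjusted p = 0.0197).

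The level of the genes per length of exon ran over a wide range. In WT CMP libraries 3 and 4, Ifitm3 had 432 CPM per kilobase, Bst2 197, Lgals3bp 101, Oas1a 35.5 and Isg15 28.5, and the lowest were Herc6 and Mx2 at 2.88 CPM per kilobase each. Several genes lie in clusters. Oas1a, Oas2 and Oas3 lie together on chromosome 5, and Oasl1 and Oasl2 lie together elsewhere on chromosome 5. The others are Ifit1, Ifit2 and Ifit3 on chromosome 19, Gbp2 and Gbp3 on chromosome 3 and Mx1 and Mx2 on chromosome 16. Close copies such as Oas1g or Ifit3b share sequence with them, and how the authors counted shared reads and strand is not given, so the values of Oas1a, Ifit1, Ifit3, Gbp2 and Gbp3 are uncertain to that extent.

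The interferons themselves were near absent. Of 21 interferon genes in the files, 9 had a count of 0 in every library, and only Ifng exceeded 1 CPM; Ifnb1, the first interferon made on infection, reached at most 0.524 CPM (13.2 fragments, KO CMP library 3). The receptor genes were present throughout. Ifnar1 measured 81.5, 77.0, 79.7 and 75.0 CPM in KO CMP, against 83.2, 80.3, 89.8 and 87.1 CPM in WT CMP, with overlapping groups. In KO CMP libraries 1 and 2, 3 of 6 receptor genes fell against WT libraries 1 and 2: Ifngr1, of the interferon gamma receptor (-1.03 ± 0.07), Ifnar2 (-0.37 ± 0.08) and Ifngr2 (-0.36 ± 0.08). Ifngr1 moved against the interferon response genes in WT CMP, where it was higher in libraries 1 and 2 (0.62 ± 0.07, adjusted p = 1.38e-04).

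Other lists of the pathway were set beside the 37 genes in KO CMP libraries 1 and 2 against WT, where 18.5% of all genes were called. Of 9 genes of JAK, STAT and IRF signalling, Irf2 rose (0.49 ± 0.08) and Tyk2 and Irf5 fell (-0.47 ± 0.12 and -0.37 ± 0.12). Of 13 sensors and adaptors none rose and 5 fell, among them Unc93b1, which delivers endosomal Toll-like receptors (-1.13 ± 0.07), and the kinase Ikbke (-1.13 ± 0.09). Of 13 negative regulators Socs3 rose (0.80 ± 0.15) and Irf2bp2 and Trex1 fell (-0.63 ± 0.10 and -0.54 ± 0.12). Of 49 further type I induced genes 11 rose and 8 fell, with Parp12 at 1.22 ± 0.11 and Pyhin1 at -2.03 ± 0.25. Of 15 GTPases known for induction by interferon gamma 6 rose and none fell, with Iigp1 at 1.55 ± 0.24. Of 12 antigen presentation genes only H2-K1 rose (0.38 ± 0.07). The median log2 fold change was 0.10 over the 49 genes, 1.10 over the GTPases and 0.10 over antigen presentation, beside 0.45 over the 37 genes and 0.01 over all genes. The GTPase median rested on KO CMP library 2, the library that held Ifng. Gbp4 measured 2.02 and 10.6 CPM in KO CMP libraries 1 and 2, against 2.68 and 2.46 CPM in WT, and Gbp9 measured 1.83 and 6.73 CPM, against 2.28 and 1.73 CPM. Without that library, an alternative chosen after seeing the data, the median over the 14 GTPases then tested was 0.18, and 6 again rose.

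The lists differed in the WT split by number. In WT CMP libraries 1 and 2 against 3 and 4, where 22.9% of all genes were called, 34 of the 49 further induced genes fell and 2 rose, 9 of 15 GTPases fell, and 10 of 12 antigen presentation genes fell, with medians of -0.56, -0.96 and -0.50. Of the other lists, 1 of 6 receptor genes rose and none fell, 3 of 9 signalling genes and 5 of 13 negative regulators fell and none rose, and 2 of 13 sensors and adaptors rose and 2 fell. Named genes include Ifi27l2a at -2.04 ± 0.19, Tgtp2 at -1.06 ± 0.10 and Tap1, a peptide transporter, at -0.62 ± 0.07. In WT GMP, where 8.61% of all genes were called, 19 of the 49, 9 of 15 GTPases and 3 of 12 antigen presentation genes fell and none rose. In numbers 3 and 4, KO against WT CMP, no gene of these 7 lists passed.

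**Figure D5:**
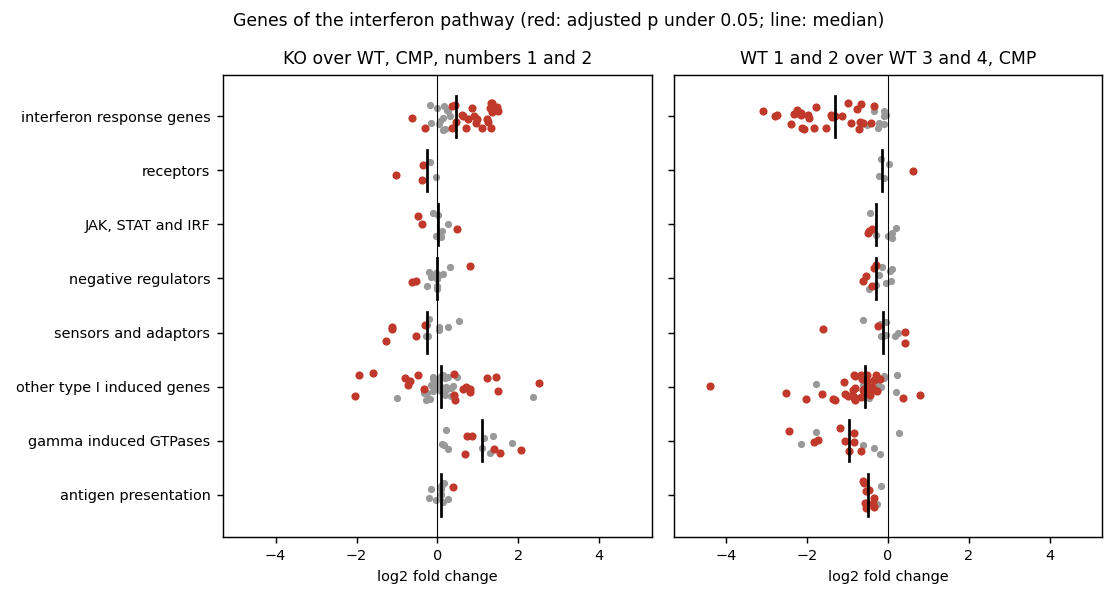
Log2 fold changes of the 37 interferon response genes and of 7 other lists of the pathway in KO over WT CMP, numbers 1 and 2 (left), and in WT CMP libraries 1 and 2 over 3 and 4 (right); each point is a gene, red where the adjusted p was under 0.05, and the black line is the median of the list. On the left the interferon response genes and the gamma induced GTPases lie mainly right of 0 (medians 0.45 and 1.10, or 0.41 and 0.18 without KO CMP library 2), and on the right both lie left of 0 (medians -1.30 and -0.96).

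The sort itself excludes cells with surface Sca1, whose gene Ly6a is interferon-induced and is among the stem cell markers above. Ly6a measured 19.9, 32.0, 40.6 and 45.2 CPM in KO CMP, against 11.8, 11.6, 33.3 and 43.6 CPM in WT CMP. In each genotype Ly6a was lower in libraries 1 and 2 than in 3 and 4, though KO CMP library 2 stood near WT CMP library 3. In GMP it measured 6.26, 7.85 and 8.49 CPM in KO, against 1.87, 1.56, 5.60 and 6.86 CPM in WT. The groups overlapped in CMP, and in GMP the KO libraries 3 and 4 lay above the 4 WT libraries.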

How the data were processed

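RNA of sorted CMP and GMP was made into libraries with a SMARTER mRNA-Seq kit, per the labels' protocols, and reads were aligned with HISAT to mm10, per the submitters' processing notes. No source at hand names the tool versions, the counting tool, its annotation or its use of strand. The deposited files hold expected counts per gene as whole numbers, and of the 40915 values from 1 to 40, 38.0% were multiples of 4 where an even spread gives 25%, so about 4 units were taken as 1 fragment. Library totals were 61.28 to 120.3 M units. KO GMP library 2 was not analysed here.

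Counts were scaled by TMM and tested with edgeR 4.0.16 (R 4.3.3, quasi-likelihood, filterByExpr), with Benjamini-Hochberg adjustment over 15181 genes and a threshold of 0.05. One fit had 4 group coefficients (11 residual degrees of freedom) and gave the comparisons over all libraries. The other had 8 combinations of group and number pair (7 residual degrees of freedom). The fit was tested on simulated data. CPM are scaled by these factors. DESeq2 1.42.0, RLE size factors, no filter on low counts, counts divided by 4, the library number as a block, the number pair as a covariate and leaving out each library were tried as alternatives. Positions and exon lengths came from GENCODE M21 (GRCm38).

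The genes, the lists, the split by number and the rule for named genes were chosen with earlier results of these data known. The rule gives library values for Irf7, Irf9, Stat2, Isg15, Usp18, the 10 genes with the smallest p in the WT CMP split and those that fell in KO CMP numbers 1 and 2, and up to 4 genes of other lists; Ly6a, Ifnar1, Siglech, Cd3e and Ifng were named after their values were seen. Deviations from group means correlated at 0.13 to 0.42 between same-numbered libraries of the groups compared, so numbers were taken to pair libraries. Libraries of different number in the same number pair correlated as well (median 0.15, against 0.16 for the same number, over 21 library pairs each). No libraries were identical. One item is not reported here.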

Additional observations from a re-analysis of the deposited data

Results flagged for a closer look

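Eif2ak2 had 1 WT CMP library, library 3 at 66 CPM, standing apart from the other 3. Of 111 gene and group combinations tested for such a library it was the only 1, and chance gives about 1 in 20.

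The KO effect differed between numbers 1 and 2 and numbers 3 and 4 by the test of the difference (edgeR). In CMP the log2 difference was 1.03 for Rtp4, 1.01 for Ifi44, 0.99 for Oas3, 0.92 for Usp18, 0.84 for Rsad2, 0.82 for Irf7, 0.81 for Oasl1, 0.70 for Oas2, 0.59 for Ddx58, 0.53 for Oasl2, 0.52 for Lgals3bp and 0.49 for Ifitm3, and it was -0.49 for Stat2 and -0.48 for Gbp3. In GMP, with a single KO library in numbers 1 and 2, it was 2.72 for Ifit1, 1.79 for Rsad2, 1.72 for Rtp4, 1.43 for Oasl1, 1.40 for Oasl2, 1.38 for Irf7, 1.29 for Oas3, 1.28 for Ifi44, 1.24 for Usp18, 0.80 for Lgals3bp, 0.79 for Oas2 and 0.64 for Ifitm3. The KO libraries of numbers 1 and 2 are the ones that held Xist, so number and that feature cannot be told apart in KO. Trappc1 moved with them too, at 5.56 and 3.83 CPM in KO CMP libraries 1 and 2 against 11.7 and 13.4 CPM in libraries 3 and 4 (-1.42 ± 0.20, adjusted p = 5.90e-04), and at 6.09 CPM in KO GMP library 1 against 24.1 and 25.2 CPM (-2.02 ± 0.27, adjusted p = 1.95e-04). The part of the remaining Trappc1 RNA in the difference was not tested.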

How the results depend on the processing

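No value changed direction past the threshold under the alternatives run, and over single genes 6530 alternative values kept their side of the threshold, 146 gained a call and 169 lost one. With DESeq2, 3 genes were higher in KO CMP numbers 3 and 4, 1 in KO GMP numbers 3 and 4 and 7 in their mean; counts divided by 4 gave 2 in the mean and no filter gave 2. With DESeq2 or RLE factors 1 gene fell in KO CMP numbers 1 and 2; with RLE 0 were lower in the CMP difference between number pairs, and with DESeq2 1 was lower in the GMP one. For GMP against CMP, DESeq2 gave 7 lower in WT and 2 in KO, counts divided by 4 gave 2 in KO, and the number pair as a covariate gave 25 lower and 1 higher in WT and 25 lower in KO. The replicate block gave 22 lower and 1 higher in WT, 23 lower in KO, 1 higher in the mean of numbers 3 and 4 and 1 lower in the GMP difference; its other counts stayed within 1.5 times. The cause of these changes was not tested.

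With 1 library left out in turn, the genes called higher numbered 16 to 20 in KO CMP numbers 1 and 2, 16 to 18 in KO GMP numbers 1 and 2, 4 to 10 in the CMP difference, 10 to 12 in the GMP difference and 0 to 1 in KO CMP by number. Those called lower numbered 1 to 3, 0 to 2, 0 to 2, 0 to 0 and 26 to 27 in the same order, 19 to 20 in KO GMP by number, 28 to 29 in WT CMP by number, 27 to 28 in WT GMP by number, 0 to 5 for GMP against CMP in WT and 0 to 1 in KO. Without the 3 KO libraries that held Xist, an alternative chosen after seeing the data, no gene was called in KO CMP over all libraries, with 34 of 37 values positive and a median of 0.79; KO CMP libraries 3 and 4 are then set against WT CMP libraries 1 to 4, and against WT CMP libraries 3 and 4 alone the median was 0.27. Depth limits Ifit1 and Ifit3 in WT GMP, where Ifit3 had 5.8 and 6.2 fragments in libraries 1 and 2.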
